A study of Homo sapiens with 6 samples.

Results

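The 10 genes examined here encode apolipoproteins that hepatocytes secrete: APOA1, APOA2, APOA5, APOB, APOC1, APOC2, APOC3, APOE, APOH and APOM. They were chosen by name, and all 10 were found among the 59608 genes of the count table. Their RNA was measured in HepG2, a human liver cancer line in long use. Endogenous VEZF1 had been targeted with a lentiviral guide RNA in every library. VEZF1 is a zinc finger transcription factor. Cells then re-expressed either the wild-type protein (VEZF1-WT, 3 libraries) or VEZF1-2A (3 libraries), in which a pair of neighbouring serines is replaced by alanine. The study describes these serines as sites of O-linked N-acetylglucosamine (O-GlcNAc), a single sugar attached to nuclear and cytosolic proteins, among several candidate sites. The comparison addresses whether RNA levels differ between cells with the wild-type protein and cells with the alanine form. In another hepatoma line, the study reports a shorter half-life and more ubiquitination for the alanine form than for the wild-type protein. The separate parts of the sugar, of the amount of VEZF1 protein and of the substitution itself were not tested. A library without re-expressed VEZF1 was not analysed here, so each difference is between the 2 forms only.

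Apolipoproteins are the protein part of lipoprotein particles, which carry cholesterol and triglyceride through the blood. In the hepatocyte, APOB is loaded with lipid while it is being made and leaves the cell as very low density lipoprotein (VLDL), which lipases turn into low density lipoprotein (LDL). The small exchangeable apolipoproteins move between particles and switch lipases and receptors on or off, while APOA1 and APOA2 form the frame of high density lipoprotein (HDL).

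Total counts ranged from 28756765 to 57199396 per library, and 19111 genes had enough counts to be tested, all 10 apolipoprotein genes among them. The targeted gene, VEZF1, had 59.3, 45.6 and 40.0 CPM (counts relative to the scaled library total) in VEZF1-WT replicates 1, 2 and 3 and 46.2, 48.6 and 38.9 across the VEZF1-2A libraries. The groups overlapped. Reads of the endogenous gene and of the re-expressed forms are counted together, and the groups rest on the library labels. All 12 hepatocyte secreted protein markers were detected and tested, with a summed level of 9656 to 13937 CPM per library. ALB (albumin) had 2813 to 3672 CPM and AFP (alpha-fetoprotein, the fetal counterpart of albumin) 1763 to 3643. Of the markers of other cell types, the leukocyte list summed to 657 to 776 CPM, nearly all of it from LYZ (493 to 663) and CD68 (112 to 185), while the defining leukocyte gene PTPRC had at most 0.121. The CD68 and LYZ levels are uncertain, since CD68 shares 81.6% of its exon bases with AC016876.3, counted at 376% of CD68, and LYZ shares 34.7% with AC020656.1, counted at 16.5% of LYZ. The fibroblast list summed to 1.71 to 3.47 CPM, mostly from COL1A1 and PDGFRB, with LUM at 0 counts in all 6 libraries. The endothelial list, led by PECAM1 and VWF, summed to 2.20 to 4.35. In the enterocyte list VIL1 had 339 to 397 CPM and FABP2 at most 1.17 (VIL1 shares 44.2% of its exon bases with USP37), while SI was at 0 counts in all 6. With bulk RNA, fewer cells that make a transcript and less of it per cell cannot be told apart.

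The stretch upstream of the RefSeq start of 4 of these genes is shown to place the sequence beside the measurements: APOA5 and APOH, whose levels varied widely over the libraries, and APOA2 and APOM, whose levels varied least. RefSeq promoter windows (GRCh38.p14) matched 7 of the 10 genes with 10 windows; APOA1, APOB and APOC3 had no entry. Each line gives the 250 bases before the annotated start, 5′ to 3′ on the strand of the gene, and capitals mark the motifs searched. These were TATAAA (the TATA box), AGGTCA (the core bound by nuclear receptors such as HNF4A), its longer form AAAGGTCA, which contains AGGTCA, and GTTAAT (the core of HNF1 sites), each on both strands. APOA5 is on the minus strand of chromosome 11, chr11:116792421-116792670.
APOA5: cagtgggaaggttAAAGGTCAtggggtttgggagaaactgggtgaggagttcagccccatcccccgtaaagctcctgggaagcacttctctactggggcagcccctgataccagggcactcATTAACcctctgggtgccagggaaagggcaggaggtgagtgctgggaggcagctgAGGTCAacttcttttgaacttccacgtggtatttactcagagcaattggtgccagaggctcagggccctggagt
APOH is on the minus strand of chromosome 17, chr17:66229416-66229665; this RefSeq start lies inside the gene as the count table draws it.
APOH: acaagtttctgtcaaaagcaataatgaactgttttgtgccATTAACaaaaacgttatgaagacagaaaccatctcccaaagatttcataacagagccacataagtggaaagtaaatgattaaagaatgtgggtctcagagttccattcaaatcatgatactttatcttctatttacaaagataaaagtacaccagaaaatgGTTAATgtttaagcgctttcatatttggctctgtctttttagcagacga
APOA2 is on the minus strand of chromosome 1, chr1:161223629-161223878.
APOA2: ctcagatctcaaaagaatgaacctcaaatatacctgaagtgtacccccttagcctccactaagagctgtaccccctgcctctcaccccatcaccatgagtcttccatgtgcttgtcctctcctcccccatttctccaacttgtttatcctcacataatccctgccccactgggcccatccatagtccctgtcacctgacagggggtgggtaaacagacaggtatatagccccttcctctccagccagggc
APOM is on the plus strand of chromosome 6, chr6:31655644-31655893; this window too lies inside the gene as listed in the count table, from 31652416 to 31658210.
APOM: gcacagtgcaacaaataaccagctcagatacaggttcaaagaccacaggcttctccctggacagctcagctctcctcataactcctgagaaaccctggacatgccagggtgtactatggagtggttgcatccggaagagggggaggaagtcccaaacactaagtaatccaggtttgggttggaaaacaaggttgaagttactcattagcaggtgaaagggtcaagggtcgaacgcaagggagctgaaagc
The APOA5 stretch held 4 matches, of which 1 AGGTCA lies within AAAGGTCA, and that of APOH held 2 matches of GTTAAT. Those of APOA2 and APOM held 0 matches. Of the windows not printed, the second of APOA5 held 1 match (AGGTCA), that of APOC2 held 2 (TATAAA and AGGTCA), and those of APOC1 and APOE held 0. No relation between matches and variation over the libraries was tested. Over all 35116 windows of the same length in the RefSeq table, 12.1% held AGGTCA, 1.05% AAAGGTCA, 6.23% GTTAAT and 10.7% TATAAA. A match is a string of letters and was not tested for binding.

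The 10 apolipoprotein RNAs spanned a wide range of levels. Compared per gene length, as TPM (a length-scaled share of all transcripts in a library) computed from the counts and the listed exon lengths, APOA2 was the most abundant at 3505 ± 131 TPM (SD over 6 libraries). APOA1 followed at 2232 ± 192, then APOB at 1038 ± 63.1 and APOE at 833 ± 51.1. APOH had 472 ± 71.2, APOC2 126 ± 9.82, APOC1 81.2 ± 4.39 and APOM 40.2 ± 1.85 TPM. APOC3 (11.9 ± 3.63) and APOA5 (9.50 ± 2.64) were the least abundant. Each gene down to APOM lay above the next in all 6 libraries with no overlap of their ranges. APOC3 and APOA5 overlapped in range, although APOC3 was the higher in each of the 6. Per library, the 10 genes took from 0.881% to 1.03% of all counts, and APOB, which has the longest transcript, held 64.0% to 64.9% of those counts.

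**Figure D1:**
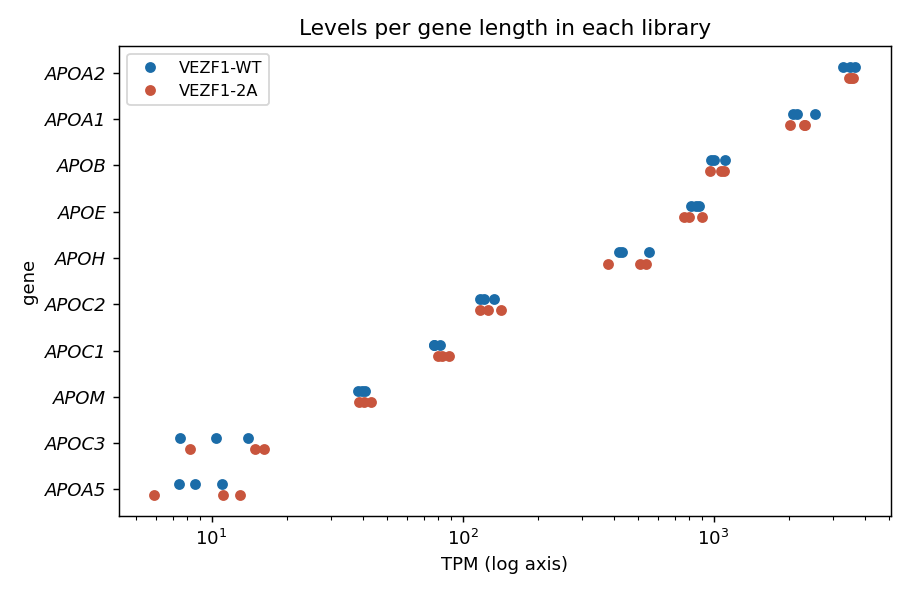
Level of each apolipoprotein gene per gene length (horizontal, TPM on a log axis) with 1 point per library, coloured by group; genes are ordered by their mean. APOA2 is highest (3283 to 3676 TPM) and APOA5 lowest (5.91 to 13.0), and the points of both groups lie over each other for every gene.

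Some neighbours on a chromosome differed widely in level and others little. On chromosome 11 (GRCh38), APOA5 (minus strand, 116789367 to 116792420), APOC3 (plus strand, 116829706 to 116833072) and APOA1 (minus strand, 116835751 to 116837622) lie in 1 cluster. APOC3 and APOA1 are 2678 bases apart, and the mean TPM of APOA1 was 188 times that of APOC3. The mean TPM of APOC3 was 1.25 times that of APOA5. On chromosome 19, APOE (44905791 to 44909393), APOC1 (44914247 to 44919349) and APOC2 (44946035 to 44949565) all lie on the plus strand. The mean TPM of APOE was 10.3 times that of APOC1, and that of APOC2 was 1.56 times that of APOC1. The other 4 genes stand apart: APOA2 on chromosome 1 (minus strand, 161222292 to 161223631), APOB on chromosome 2 (minus strand, 21001429 to 21044073), APOM on chromosome 6 (plus strand, 31652416 to 31658210) and APOH on chromosome 17 (minus strand, 66212033 to 66256525).

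Exons of 6 of these genes are also listed under other entries of the table, which makes their values uncertain. APOC2 shares 676 exon bases with APOC4-APOC2, a readthrough transcript entry, and the counts of the 2 entries differed by at most 11 in any library (1673 and 1671 in VEZF1-2A replicate 1). The counts of these 2 entries alone do not part APOC2 from the readthrough. APOC4 shares 82.9% of its exon bases with the same readthrough entry and had at most 8 counts in a library. If reads on shared exons are counted for both entries, few reads of the readthrough entry thus lay on exons of APOC4. APOC1 shares 43.2% of its exon bases with AC011481.3, whose total was 61.9% of that of APOC1. APOA1 shares 123 bases with the antisense entry APOA1-AS (20.8% of its total) and APOM 136 bases with BAG6, which is counted at 614% of APOM. The overlap of APOB with AC010872.1 and of APOE with AC011481.3 concerned 1.14% and 0.882% of their exon bases. APOA2, APOA5, APOC3 and APOH shared none.

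The levels of the 10 apolipoprotein genes did not separate VEZF1-WT from VEZF1-2A. In edgeR's quasi-likelihood test, 0 of the 10 had an adjusted p under 0.05 (Benjamini-Hochberg over 19111 genes, where 0 genes, 0%, passed), and 0 of the 10 had an unadjusted p under 0.05, where 408 genes (2.13%) did. DESeq2's test and limma voom likewise gave 0 of 10 at either threshold. The values of the 2 groups overlapped for all 10, against 1406 genes (7.36%) with groups that did not overlap. The log2 fold change of VEZF1-WT over VEZF1-2A was below 0 in 8 of the 10 and above 0 in 2, where 49.9% of all genes tested were below 0. Its median over the 10 was −0.04 and over all genes tested 0.00. Every adjusted p was 0.9996 in this fit, and an exact permutation test of 3 libraries against 3 cannot give a p under 0.1.

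**Figure D2:**
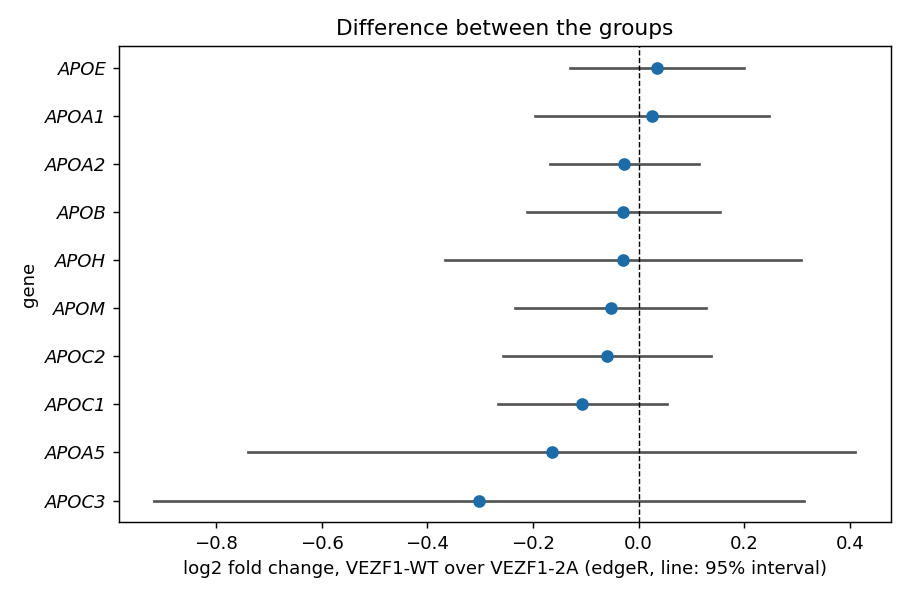
Log2 fold change of VEZF1-WT over VEZF1-2A for each apolipoprotein gene (horizontal; edgeR, 3 libraries a group), with the 95% interval as a line and 0 dashed. All 10 intervals include 0, and they are widest for APOC3 (−0.92 to 0.31) and APOA5 (−0.74 to 0.41).

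APOB, the structural protein of VLDL and LDL that stays with its particle, had 5689, 5755 and 6719 CPM in VEZF1-WT replicates 1, 2 and 3, and its VEZF1-2A libraries gave 5565, 6409 and 6559. The highest and the lowest value thus came from opposite groups, with VEZF1-WT replicate 3 at the top and VEZF1-2A replicate 1 at the bottom. The mean was 6055 ± 577 for VEZF1-WT against 6178 ± 536 for VEZF1-2A (SD, n = 3 each), and the fitted log2 fold change came to −0.03 (standard error 0.08, 95% interval −0.21 to 0.15). A change beyond those bounds in either direction lies outside the 95% interval.

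Of the HDL apolipoproteins, APOA1, which activates the cholesterol-esterifying enzyme LCAT, had 892, 912 and 1137 CPM with VEZF1-WT re-expressed and 859, 985 and 1046 with VEZF1-2A. Replicate 3 of VEZF1-WT was again highest and replicate 1 of VEZF1-2A lowest. The fitted log2 fold change came to 0.03 (standard error 0.10, 95% interval −0.20 to 0.25). APOA2, the second most abundant protein of HDL in plasma, had 1216, 1276 and 1415 CPM with VEZF1-WT re-expressed and 1313, 1310 and 1357 with VEZF1-2A. The VEZF1-2A values lay within the range of those of VEZF1-WT, with a log2 fold change of −0.03 (standard error 0.06, 95% interval −0.17 to 0.11). APOM, a lipocalin that carries sphingosine 1-phosphate on HDL, had 19.2, 18.3 and 20.7 CPM with VEZF1-WT re-expressed and 18.6, 21.1 and 20.7 with VEZF1-2A. On the fitted scale the log2 fold change came to −0.05 (standard error 0.08, 95% interval −0.23 to 0.13).

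Among the apolipoproteins that govern triglyceride clearance, APOC3 and APOA5 have opposite known roles, APOC3 as an inhibitor of lipoprotein lipase and of remnant uptake and APOA5 as a factor that promotes lipolysis. APOC3 had 3.49, 2.47 and 4.83 CPM with VEZF1-WT re-expressed and 2.71, 5.40 and 5.25 with VEZF1-2A, from 79 to 272 raw counts a library. Both groups thus held low and high libraries, and its log2 fold change was −0.30 (standard error 0.28, unadjusted p = 0.301 in edgeR's quasi-likelihood test). The APOA5 level was 6.80, 5.78 and 9.05 CPM with VEZF1-WT re-expressed and 4.63, 8.82 and 10.8 with VEZF1-2A, so that both its lowest and its highest library carried VEZF1-2A. The fitted log2 fold change came to −0.16 (standard error 0.26, unadjusted p = 0.539 in the same test). Both values moved when VEZF1-2A replicate 1 was left out. Without it the log2 fold change was −0.55 for APOC3 (unadjusted p = 0.0422) and −0.43 for APOA5 (unadjusted p = 0.0397), 2 of the 10 genes, where 1.47% of the 19817 genes then tested were lower in VEZF1-WT at that threshold. In that fit 0 genes had an adjusted p under 0.05. Without VEZF1-2A replicate 3 the value was −0.18 for APOC3 and 0.09 for APOA5.

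APOC2, the cofactor that lipoprotein lipase needs, had 58.2, 59.5 and 68.5 CPM with VEZF1-WT re-expressed and 57.4, 70.7 and 65.9 with VEZF1-2A. The fitted log2 fold change came to −0.06 (standard error 0.09, 95% interval −0.26 to 0.14), and nearly the same counts are listed for APOC4-APOC2. APOC1, which inhibits the cholesteryl ester transfer protein, had 37.1, 36.6 and 40.9 CPM with VEZF1-WT re-expressed and 38.3, 42.9 and 42.3 with VEZF1-2A. With means of 38.2 ± 2.38 and 41.1 ± 2.51 (SD, n = 3 each), this gene had the smallest unadjusted p of the 10 (0.169 in edgeR's quasi-likelihood test, log2 fold change −0.11, standard error 0.07). In a two-sided exact permutation test its p was 0.2.

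APOE, the ligand through which remnant particles are taken up by hepatocytes, had 683, 708 and 770 CPM with VEZF1-WT re-expressed and 638, 761 and 712 with VEZF1-2A. The fitted log2 fold change came to 0.03 (standard error 0.07, 95% interval −0.13 to 0.20). APOH, also called beta-2-glycoprotein I, binds phospholipid surfaces and is the antigen of antiphospholipid antibodies. It had 225, 216 and 301 CPM with VEZF1-WT re-expressed and 196, 267 and 295 with VEZF1-2A. The group means of 247 ± 46.6 and 253 ± 51.2 (SD, n = 3 each) differed by far less than either SD, and the log2 fold change was −0.03 (standard error 0.15, 95% interval −0.37 to 0.31).

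**Figure D3:**
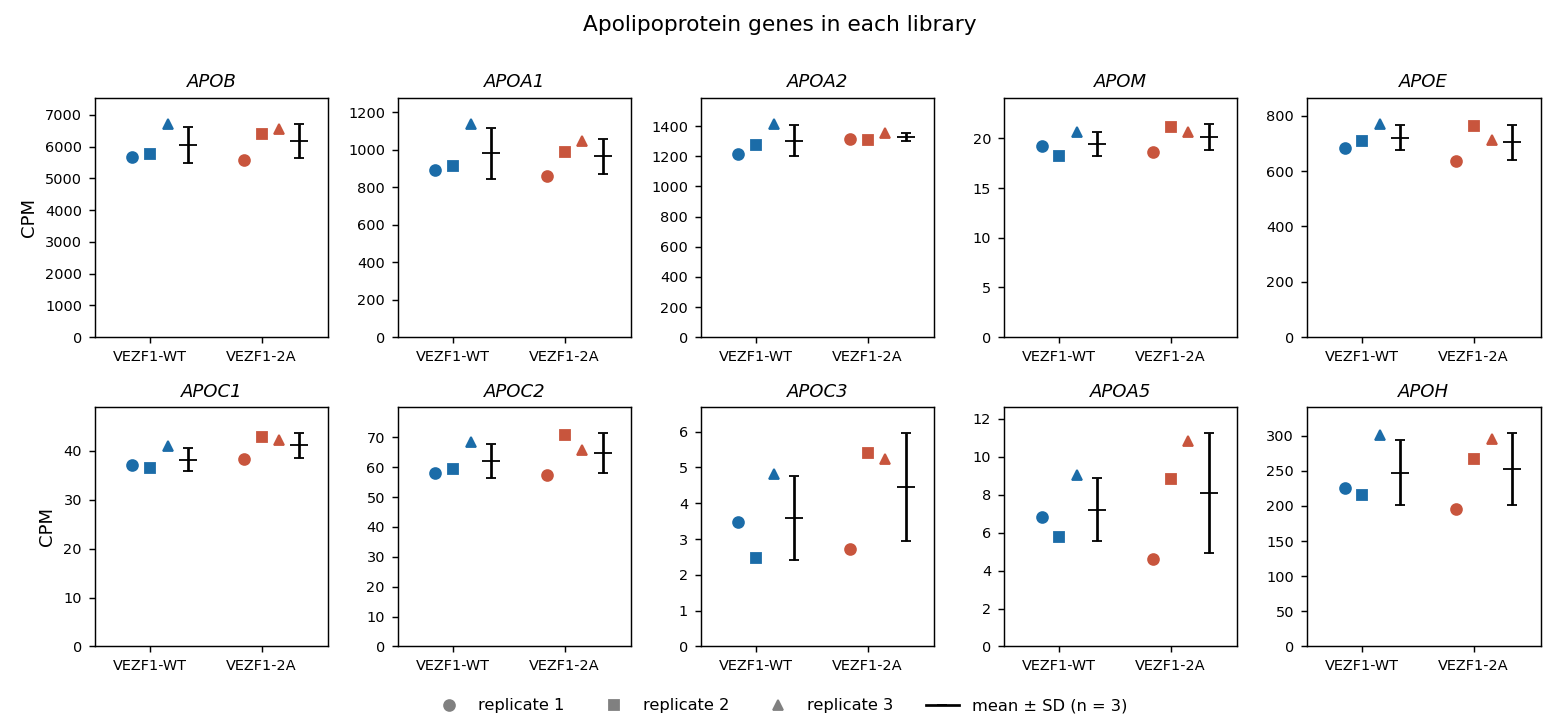
CPM of each apolipoprotein gene (vertical, linear from 0, with an own scale per gene) in the 3 VEZF1-WT and 3 VEZF1-2A libraries; marker shape gives the replicate number, and the bars are the mean ± SD (n = 3). The points of the groups overlap for all 10 genes, and the relative spread is widest for APOC3 (2.47 to 5.40 CPM) and APOA5 (4.63 to 10.8).

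Levels varied between libraries of the same group, and the groups overlapped for all 10 genes. How much of the variation lay between the groups was not computed. For 9 of the 10 apolipoprotein genes the 3 highest libraries were VEZF1-WT replicate 3 and VEZF1-2A replicates 2 and 3, and APOA2 was the exception, with VEZF1-2A replicate 1 (1313 CPM) just above replicate 2 (1310). The same 3 libraries were highest in 9 of the 12 hepatocyte secreted protein markers and in 8.05% of all genes tested. This order was noticed after the values were seen and has no test. The size of the variation differed between the genes. The highest library exceeded the lowest by 2.34 times for APOA5, 2.18 times for APOC3, 1.54 times for APOH and 1.32 times for APOA1, but by 1.16 times each for APOA2 and APOM and 1.17 times for APOC1. The coefficient of variation over the 6 libraries was 32.3% for APOC3 and 30.2% for APOA5. These lay above those of 99.6% and 99.4% of the 11703 genes tested with at least the mean CPM of APOC3, the lowest apolipoprotein gene. APOC3 was thus ranked only against genes at or above its own level, and genes of like level alone were not compared. The coefficient was 17.5% for APOH and 5.17% for APOA2, where the median of the 11703 genes was 6.97%.

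Counting intervals are given for the lowest and the highest library of the 2 genes of widest spread. For APOC3, the gene with the fewest counts, the exact 95% Poisson interval was 1.98 to 3.04 CPM in VEZF1-WT replicate 2 and 4.70 to 6.17 in VEZF1-2A replicate 2. For APOA5 the interval was 3.88 to 5.48 CPM in VEZF1-2A replicate 1 and 9.74 to 12.01 in replicate 3 of that group. These intervals cover counting error only, and they are too narrow where both reads of a pair were counted, since 65.7% to 67.5% of counts from 11 to 100 were even numbers. The libraries with high values did not share a depth. VEZF1-WT replicate 3 was the deepest (57199396 counts), while VEZF1-2A replicates 2 and 3 held 39565464 and 33966492, below the 47414775 of VEZF1-WT replicate 1, which had low values. The mitochondrial share was 7.94% to 8.28% in VEZF1-WT and 8.29% to 8.55% in VEZF1-2A. The 12 proliferation genes, with TOP2A and PCNA the most abundant per length, summed to 2374, 1885 and 2263 CPM in VEZF1-WT. In VEZF1-2A they summed to 1966, 1890 and 2377. The part of counting error, depth, RNA quality, proliferation or culture in this variation was not tested.

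**Figure D4:**
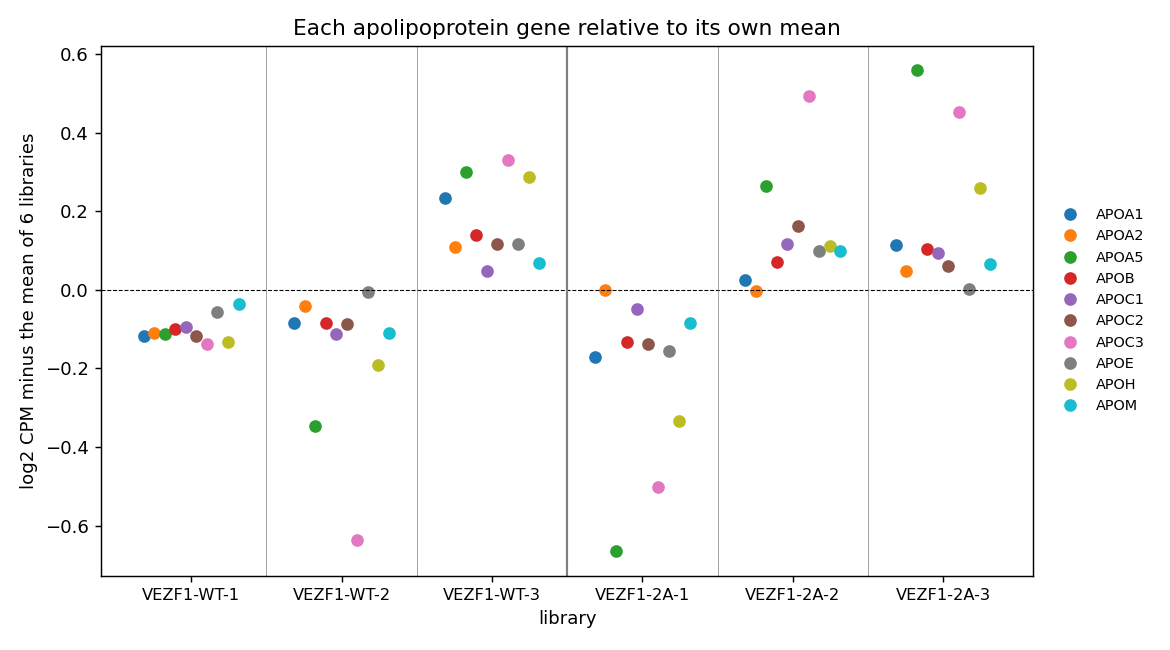
Level of each apolipoprotein gene in each library relative to its own mean (vertical, log2 CPM minus the mean of the 6 libraries), with 1 colour per gene; libraries are on the horizontal axis and the thick line parts the groups. In VEZF1-WT replicate 3 all 10 genes lie above 0 and in VEZF1-WT replicate 1 all 10 lie below it; APOA2, APOM and APOC1 stay close to 0 throughout.

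The apolipoprotein genes varied together. Over the 6 libraries, Pearson's r of log2(CPM + 0.1) was above 0 for all 45 pairs of genes and above 0.8 for 29, with a median of 0.843. The highest pair was APOC3 and APOM (r = 0.994, Spearman's rho = 0.943, and r = 0.981 without the 2 libraries farthest from the median), although APOM moved over a far smaller range. The lowest was APOA2 and APOA5 (r = 0.495, rho = 0.543, and r = 0.657 without the 2 farthest). All pairs share the same 6 libraries and their scaling, so these values describe the libraries and carry no p. The summed CPM of the 10 mostly reflects APOB, which held 64.0% to 64.9% of their counts, and the genes of low level add little to it. Among the 120 list genes compared, those with a pattern close to this summed level included TTR, the thyroxine and retinol carrier transthyretin (r = 0.993), and P4HB, protein disulfide isomerase, the partner subunit of the microsomal triglyceride transfer protein (r = 0.974). Their rho was 1 in both cases, and r stayed at or above 0.97 without the 2 libraries farthest from the median. TTR had 25.4, 25.8 and 41.1 CPM with VEZF1-WT re-expressed and 24.4, 34.8 and 39.6 with VEZF1-2A. HNF4A, the nuclear receptor known to activate many apolipoprotein genes, had an r of 0.561 with the same sum (rho = 0.714, and r = 0.794 without the 2 farthest) and ranged from 128 to 157 CPM.

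Other genes of the apolipoprotein family are listed here whether or not hepatocytes are their main source. Of 12 listed, 9 could be tested, all with a log2 fold change below 0 and a median of −0.11, 0 with an adjusted p under 0.05 and 2 lower in VEZF1-WT at an unadjusted p under 0.05. Over all genes tested, 49.9% were below 0 and 1.3% were lower at that unadjusted threshold. APOL1, the trypanolytic factor of human HDL, had 62.4, 52.3 and 40.5 CPM with VEZF1-WT re-expressed and 59.3, 89.5 and 63.8 with VEZF1-2A, a log2 fold change of −0.46 (standard error 0.17, unadjusted p = 0.022). Its groups overlapped. APOL3, an intracellular relative, had 2.26, 2.41 and 2.27 CPM with VEZF1-WT re-expressed and 2.64, 2.97 and 3.35 with VEZF1-2A, with separate groups and a log2 fold change of −0.37 (standard error 0.16, unadjusted p = 0.0374). CLU, clusterin or apolipoprotein J, was the most abundant of the list per length (437 to 530 CPM), with a log2 fold change of −0.03. SAA4, a constitutive serum amyloid A of HDL, followed, with 19.0 to 23.8 CPM; it shares 75.6% of its exon bases with SAA2-SAA4. APOA4, in the chromosome 11 cluster, had 2.86 to 3.80 CPM, and APOC4, in the cluster of chromosome 19, had at most 0.225.

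Genes that act on apolipoproteins after transcription gave the same picture. In each list below, 0 genes had an adjusted p under 0.05. Of 19 tested genes of lipoprotein assembly and secretion, 12 were above 0 and 7 below (median log2 fold change 0.01), and 1 was lower in VEZF1-WT at an unadjusted p under 0.05, against 1.3% of all genes tested. That gene was PRAP1 at −0.34 (standard error 0.14), which shares 71.7% of its exon bases with ZNF511-PRAP1. The chaperones HSP90B1 and HSPA5 were the most abundant of the list per length, at 3068 to 4056 and 1230 to 1578 CPM. Of 14 receptor and uptake genes, 10 were above 0 and 4 below (median 0.04). SDC1 (161 to 182 CPM) and LRPAP1 (134 to 157 CPM) were the most abundant of that list per length.

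Of 13 tested genes that remodel HDL and triglyceride-rich particles, 4 were above 0 and 9 below (median −0.02). PON3, a paraoxonase carried on HDL, was the 1 gene of the list lower in VEZF1-WT at an unadjusted p under 0.05 (1.3% of all genes tested were), with 3.68, 3.71 and 2.82 CPM against 4.56, 4.62 and 3.83 and a log2 fold change of −0.36 (standard error 0.16). ANGPTL8 and FURIN were the most abundant of that list per length, with log2 fold changes of −0.07 and −0.18, and ANGPTL8 shares 28.6% of its exon bases with DOCK6. All 32 transcription factors listed for apolipoprotein genes could be tested; 19 were above 0 and 13 below, with a median of 0.02, and 0 had an unadjusted p under 0.05. HNF4A had a log2 fold change of −0.09 (standard error 0.07) and USF2 of −0.06 (standard error 0.06). Of the 12 hepatocyte secreted protein markers, 4 were above 0 and 8 below (median −0.02), with 0 at an unadjusted p under 0.05.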

How the data were processed

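RNA was taken from 6 libraries of HepG2 cells, 3 VEZF1-WT and 3 VEZF1-2A, grouped by the library titles. The authors deposited 1 table of raw read counts per gene, with exon coordinates and lengths; the build is GRCh38 per the submitters' processing notes, and aligner, counting program and strand setting are not given in the sources used here. Of 59613 lines, 5 were left out because the ANK2 entry was broken over them. These counts were fitted in edgeR 4.0.16 under R 4.3.3 (filterByExpr, minimum count 10 and minimum total 15; TMM; glmQLFit and glmQLFTest, two-sided, Benjamini-Hochberg), with the group alone as covariate. The methods name no test for RNA-seq. CPM used TMM-scaled library sizes (28756765 to 57199396 counts before scaling); TPM used the deposited lengths. Intervals are 95% from the same fit. The exact permutation test used log2(CPM + 0.1). DESeq2 1.42.0, limma 3.58.1 voom, other scalings and filters, and each library left out were alternatives. The procedure was tested on simulated data first.

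The members and lists were chosen with earlier results of these data known. Genes named are the 10 apolipoprotein genes, VEZF1, genes that share their exons, in each list the 2 genes of highest mean TPM and up to 3 with the smallest unadjusted p under 0.05, and the 3 list genes most like the summed members; APOA4, APOC4, PTPRC, LUM and SI were named outside this rule; some results that the rule calls for are not reported here. Whether libraries come from separate cultures is not stated, so p-values measure only the spread between these libraries. Replicate numbers were checked: deviations of same-numbered libraries from their group means correlated by 0.08, 0.14 and 0.36 for numbers 1, 2 and 3. For libraries of unlike number across the groups the correlations ran from −0.27 to 0.16. These values do not settle whether the numbers mark pairs. The main fit used no pairs, and a fit with the replicate number as a block was an alternative. Figures were drawn with matplotlib 3.10.9.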

Additional observations from a re-analysis of the deposited data

How the results depend on the processing

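The 18 alternatives comprised 6 that leave out 1 library and 12 others, of which counts halved was chosen after seeing the data. The number of apolipoprotein genes with an adjusted p under 0.05 was 0 in all 18. At an unadjusted p under 0.05 it was 0 in the 12 others and 0 to 2 with 1 library left out. The median log2 fold change of the 10 was −0.04 to −0.03 in the others and −0.12 to 0.00 with 1 library left out. Over all genes tested, those with an adjusted p under 0.05 numbered 16 without the filter on low counts, 3 with DESeq2's test and 6 with the replicate block, and 0 in the rest. At an unadjusted p under 0.05 these 3 gave 896, 219 and 825 genes against 408, and leaving out 1 library gave 292 to 973, the highest without VEZF1-2A replicate 3. The replicate block changed no call among the 10, but it gave each of them a smaller standard error. That of APOH went from 0.15 to 0.07, and that of APOM from 0.08 to 0.07. Whether the numbers mark shared batches is not stated. With 1 library left out, single log2 fold changes ranged from −0.0954 to 0.0878 for APOA1, −0.0914 to 0.0170 for APOA2, −0.433 to 0.0888 for APOA5, −0.111 to 0.0148 for APOB, −0.161 to −0.0750 for APOC1, −0.139 to 0.00947 for APOC2, −0.581 to −0.107 for APOC3, −0.0312 to 0.0948 for APOE, −0.196 to 0.0953 for APOH and −0.105 to −0.0126 for APOM. Adding the counts of overlapping genes counts shared reads again; it left all 10 signs as they were.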
